A study of Mus musculus with 12 samples.

Results

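Astrocytes moved from serum into MIM, a serum-free medium that carries one-carbon metabolites, were compared with astrocytes kept in serum, in 6 of the 12 mouse libraries of the study, 3 on each side. The comparison covered every gene that reached 1 FPKM in at least 3 of these 6 libraries and whose value had the status OK in all 6, which held for 15281 of 53932 genes. FPKM count sequenced fragments relative to the length of the transcript and to the size of the library. Of these genes 15276 had that status in all 12 libraries and were fitted. Just inside the limit stood Otx2 and Zfp628, whose third-highest values were 1.0014 and 1.0016 FPKM, and just outside Chst9 at 0.9989 and Pde1c at 0.9980 FPKM.

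All libraries were made from total RNA of cultured C57BL/6 cells. The group called Astrocytes grew on coated plates in DMEM-F12 with 10% heat-inactivated fetal bovine serum, B27 and Glutamax. MIM-Astrocytes were washed at near confluence and changed from that medium to MIM, which is DMEM-F12 and Neurobasal in equal parts with B27, N2, 20 ng/mL FGF2 and up to 6 metabolites (methionine, threonine, glycine, cysteine, S-adenosylmethionine and putrescine), and were collected by day 5 of treatment. Serum, base medium, FGF2 and metabolites changed together, so their parts in any difference cannot be told apart. The labels give cortex and E14.5 for both groups. They do not say which metabolites these libraries received, on which day they were taken, or which of the protocol's sources (sorted postnatal cortex or differentiated neurospheres) the astrocytes came from. NSC, used as a reference level, are neural stem cells from embryonic (E14.5) cortex, kept as neurospheres in EGF and FGF2, each at 20 ng/mL. Glioblastoma, labelled cerebella and E18.5, entered only the estimate of the spread.

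Astrocytes clear glutamate and potassium, supply lactate and lipoproteins and build extracellular matrix in the brain. Serum, which they do not normally meet, is known to make cultured astrocytes adhesive, contractile and reactive, and BMP signalling through Id proteins holds them in an astrocytic state. Neural stem cells are kept dividing and undifferentiated by EGF, FGF and Notch signals. The metabolites of MIM feed the folate and methionine cycles, which supply nucleotides, methyl groups and polyamines.

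The label was checked against markers. The sets for neural stem cells, oligodendrocytes, endothelium and pluripotent cells are not reported here. Of 12 astrocyte markers all were tested, and their summed level was 2260 to 2621 FPKM in the Astrocytes libraries and 3060 to 3636 FPKM in MIM-Astrocytes, with 6 markers higher and 3 lower. Glul, Slc1a3 and Aldoc made up most of the sum in MIM-Astrocytes (971, 860.0 and 610.3 FPKM on average). The lower markers were Gfap, Aqp4 and Sox9. Gfap stood on average at 258 FPKM in Astrocytes and 7.35 FPKM in MIM-Astrocytes (log2 difference -4.95), and Aqp4 at 397 and 35.5 FPKM (-3.45). Markers of microglia summed to at most 0.446 FPKM and those of mural cells to at most 0.785 FPKM in any of the 6 libraries. Meningeal fibroblast markers summed to 156 to 186 FPKM in Astrocytes and 5.13 to 5.61 FPKM in MIM-Astrocytes. The proteoglycan gene Ogn made up 164 FPKM of this on average in Astrocytes and 3.54 FPKM in MIM-Astrocytes. Col1a1 (2.69 and 0.0938 FPKM) and Foxc1 (1.57 and 1.22 FPKM) were called lower in MIM-Astrocytes as well. The markers Dcn, Lum, Slc6a13 and Twist1 did not reach the limit of 1 FPKM, nor did Col1a2, which is not on this list. The sum of 4 ependymal markers was on average 43.9 FPKM in Astrocytes and 13.2 FPKM in MIM-Astrocytes, and the sums did not overlap. Foxj1 made up most of it (37.5 FPKM on average in Astrocytes), and Tmem212 and Ccdc153 did not reach the limit. The sum of 7 neuron markers was 8.17 to 9.92 FPKM in Astrocytes and 3.60 to 5.03 FPKM in MIM-Astrocytes. Gad1 and Syt1 made up most of it in Astrocytes (5.21 and 3.18 FPKM on average). Rbfox3 and Snap25, both under the limit, stood higher in MIM-Astrocytes. For 6 markers of oligodendrocyte progenitors the sum was 32.4 to 36.0 FPKM in Astrocytes and 429.7 to 497 FPKM in MIM-Astrocytes. Olig1 and Olig2 held most of the latter (366 and 95.0 FPKM on average, 258 and 104 FPKM in NSC). Pdgfra, Cspg4 and Gpr17 stood at 2.52, 4.77 and 3.26 FPKM, below NSC (24.4, 7.21 and 8.14 FPKM), and Sox10 did not reach the limit. In bulk RNA, fewer cells of a type and less RNA per cell cannot be told apart.

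Between 14461 and 14739 genes reached 1 FPKM in each of the 6 libraries. The files hold no counts, so read depth is not known. The interval around a value spanned plus or minus 8.7% to 10.6% for genes near 10 FPKM and plus or minus 27.6% to 32.7% for genes near 1 FPKM. Libraries of a group correlated across genes at 0.967 to 0.983 and libraries of the 2 groups at 0.825 to 0.834, a description over genes, which are not replicates. Protein-coding genes held 49.2 ± 2.23% of the FPKM sum in MIM-Astrocytes and 60.9 ± 3.94% in Astrocytes (mean ± SD, as for all values below). For that share the exact permutation test (two-sided) gave p = 0.1, the smallest that 3 against 3 libraries allow. Nothing in the labels says that a group's libraries are from separate cultures, and the p-values here measure no more than the spread between them, which may be technical.

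Genes of many classes shifted. In MIM, genes of mitosis and most genes of DNA replication rose, Jag1, Olig1 and the insulin-like growth factor binding proteins Igfbp2 and Igfbp4 rose, and the acute phase, interferon, contractile and BMP genes of serum-grown astrocytes fell for the most part, with Mt1 and Mt2. Of the fitted genes 5545 (36.3%) were called higher in MIM-Astrocytes and 4422 (28.9%) lower, 65.2% in all, at an adjusted p below 0.05 on log2 of FPKM plus 1. By at least 2-fold on that scale 1537 (10.1%) were higher and 1430 (9.36%) lower. The libraries of the groups did not overlap for 67.0% of genes. The median difference of all genes was 0.081, and 55.6% of the calls were higher. After each library was rescaled to a common sum of FPKM the median shifted by -0.29 and 30.8% of the calls were higher, so the direction of small differences depends on the scaling. With a common sum of protein-coding genes only, the median shifted by -0.027 and 53.2% of the calls were higher. Below, a common total is that of all genes. Among genes of 100 FPKM or more 49.5% were higher and 21.8% lower, among those of 1 to 3 FPKM 28.4% and 31.3%. The counts of the gene lists below are to be read against the shares and the median of all genes given here.

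**Figure D1:**
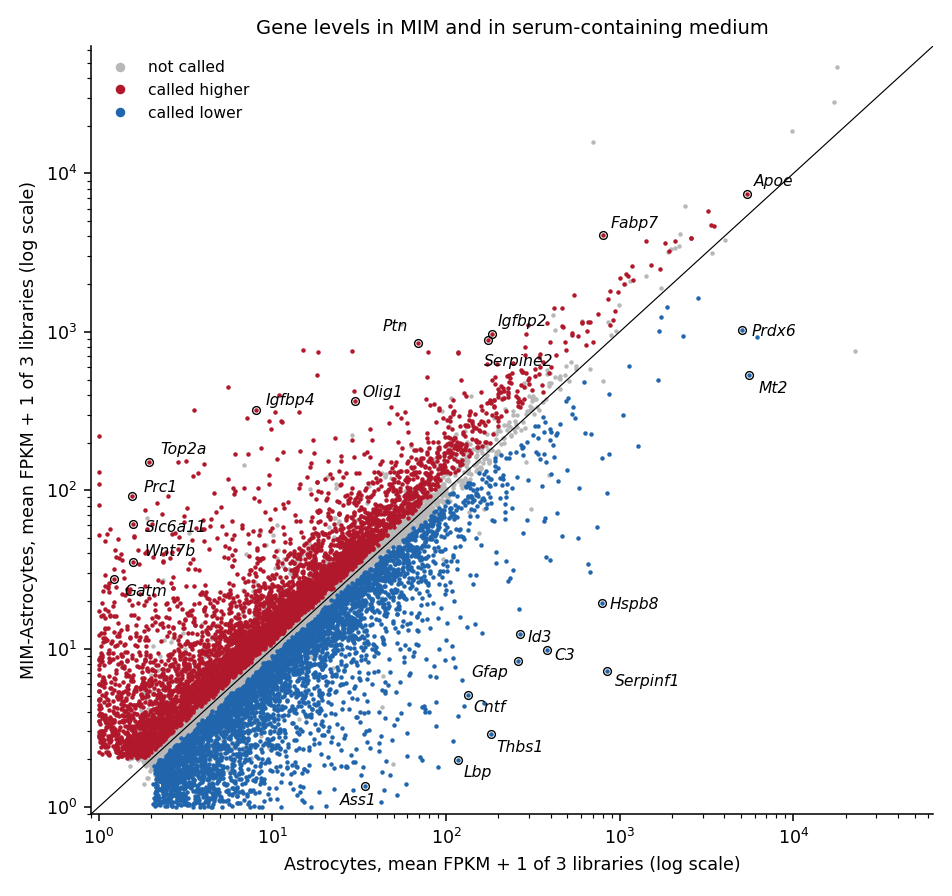
Mean level of each tested gene in Astrocytes (horizontal axis) and MIM-Astrocytes (vertical axis), both as FPKM plus 1 on log scales, with genes called higher in red, lower in blue and the rest in grey. The line marks equal levels. The circled genes, such as Igfbp4 and Serpinf1, lie far from it.

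Some genes were close to off in one condition. In 79 genes all 3 Astrocytes libraries were below 0.5 FPKM and all 3 MIM-Astrocytes libraries above 5, and 32 genes showed the reverse. Of the 79, 24 belong to the lists of replication, nucleotide synthesis, mitosis, DNA repair or G1. Fam64a, a mitotic regulator now also called Pimreg, is another of the 79 (40.7 against 0.238 FPKM), as are Gatm and Fbln2, described below. The 32 include the matrix genes Wisp2, Cemip and Fmod, the arginine-synthesis gene Ass1 and the transcription factor gene Tfcp2l1 (0.290 against 28.0 FPKM).

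**Figure D2:**
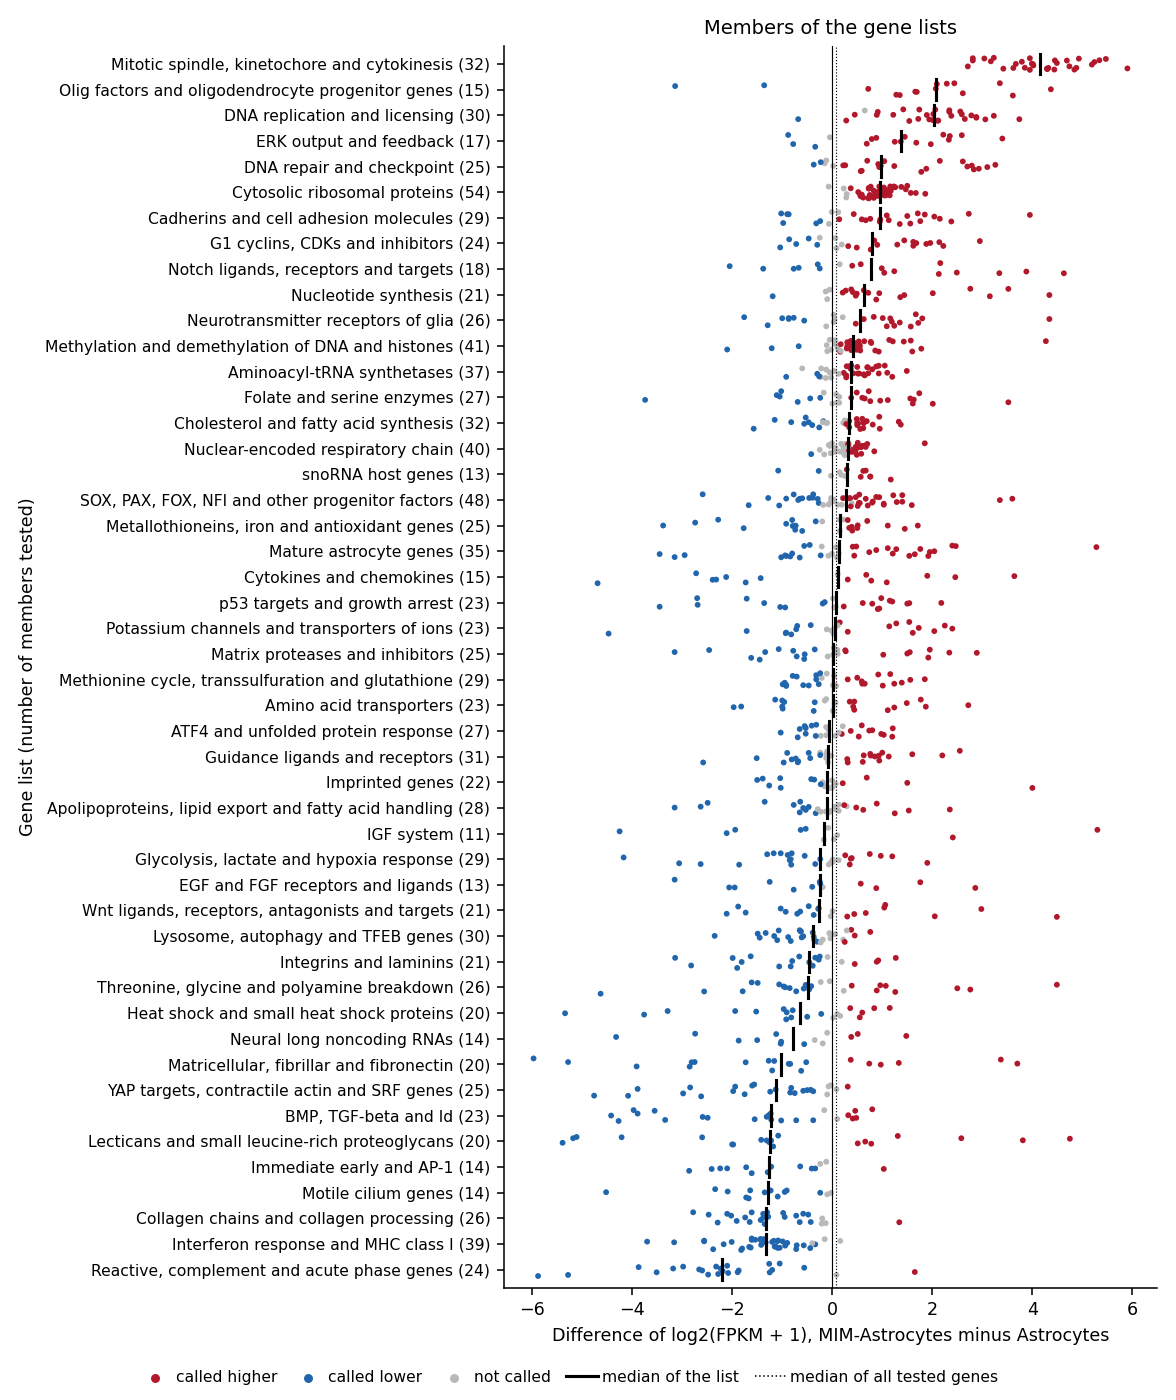
Difference of log2(FPKM + 1), MIM-Astrocytes minus Astrocytes, for each tested member of the gene lists with at least 10 tested members, with the median of each list as a bar and that of all tested genes as a dotted line. The mitotic list stands highest, with all 32 members to the right of 2, and the reactive list lowest, with a median of -2.21.

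Genes of cell division rose. All 32 genes of the spindle, kinetochore and cytokinesis were higher (background 36.3%), by 2.71 to 5.90 with a median of 4.16. Cdc20, the activator of the anaphase-promoting complex (ENSMUSG00000006398.15, chromosome 4, 118432901 to 118437352, minus strand), stood at 63.7, 82.0 and 75.7 FPKM in the MIM-Astrocytes libraries and at 1.16, 0.571 and 0.823 FPKM in Astrocytes (log2 difference 5.34, SE 0.12, adjusted p = 6.96e-11). Ube2c, the ubiquitin-conjugating enzyme of the same complex, stood at 43.3, 50.9 and 46.7 FPKM against 0.0734, 0.133 and 0.0451 FPKM. Ccnb1, cyclin B1, stood at 48.1 ± 0.944 against 0.297 ± 0.0833 FPKM. Every MIM-Astrocytes library was far above every Astrocytes library for each of these genes. The summed level of the list was 0.286 ± 0.00677% of the protein-coding sum against 0.00606 ± 0.000213%. It also lay above the stem cell level: against NSC all 32 were called higher in MIM-Astrocytes (median 1.41), where 34.2% of all tested genes were higher and 23.6% lower. Prc1, which bundles the spindle midzone, stood at 91.6 FPKM in MIM-Astrocytes, above its level in NSC (log2 difference 1.95, SE 0.084, adjusted p = 3.13e-08).

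Promoters of these genes are known for a CDE and CHR element, the second of which reads TTTGAA, with CCAAT boxes upstream. RefSeq (GRCm38.p6) gave a window of 250 bases before to 50 after the start for 27 of the 32 genes and for 8948 of the fitted genes, and the first window listed per gene was searched on both strands. TTTGAA was in 20 of the 27 (74.1%), in 11.2% of the fitted genes' windows and in 18.1% of all 27025. CCAAT was in 20 of the 27 (74.1%), against 39.6% and 37.9%. A match is a description of the letters and not a site. The windows of the 3 members with the largest difference that hold TTTGAA are shown because the list moved together, with TTTGAA and CCAAT or their reverse complements in capitals, 5′ to 3′ on the gene's strand. They are chr7:80294201-80294500 (plus strand), chr2:164769679-164769978 (plus strand) and chr4:118437294-118437593 (minus strand).
Prc1: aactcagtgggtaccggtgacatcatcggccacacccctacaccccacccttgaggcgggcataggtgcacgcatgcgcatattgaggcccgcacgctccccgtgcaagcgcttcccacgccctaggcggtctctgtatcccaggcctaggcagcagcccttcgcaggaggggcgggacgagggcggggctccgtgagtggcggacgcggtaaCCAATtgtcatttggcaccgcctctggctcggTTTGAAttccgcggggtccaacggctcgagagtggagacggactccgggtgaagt
Ube2c: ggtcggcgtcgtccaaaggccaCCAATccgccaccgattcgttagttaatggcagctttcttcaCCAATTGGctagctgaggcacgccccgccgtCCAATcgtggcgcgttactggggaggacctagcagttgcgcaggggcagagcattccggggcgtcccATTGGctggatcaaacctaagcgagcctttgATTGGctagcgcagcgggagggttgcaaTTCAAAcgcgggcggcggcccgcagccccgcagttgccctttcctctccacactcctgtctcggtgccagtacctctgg
Cdc20: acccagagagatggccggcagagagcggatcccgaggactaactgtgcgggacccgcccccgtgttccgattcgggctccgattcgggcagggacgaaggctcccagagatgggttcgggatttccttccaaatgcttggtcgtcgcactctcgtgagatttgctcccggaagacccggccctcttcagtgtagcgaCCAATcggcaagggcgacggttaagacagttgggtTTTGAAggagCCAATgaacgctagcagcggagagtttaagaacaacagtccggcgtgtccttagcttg
In Prc1 and Cdc20 TTTGAA begins 5 and 18 bases before the start and in Ube2c its reverse complement 29 bases before it. Ube2c holds 6 matches to CCAAT, a pair of which overlap.

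Genes of DNA replication rose for the most part. Of the replication and licensing genes 28 of 30 were higher and 1 lower (median 2.04). Mcm5, a subunit of the replicative helicase, stood at 21.0, 26.1 and 24.4 FPKM against 0.770, 0.804 and 0.971 FPKM (log2 difference 3.74, SE 0.081, adjusted p = 4.98e-11). Rpa1, which coats single-stranded DNA, fell (46.3 against 75.0 FPKM), and for Orc1 the libraries overlapped (0.65, adjusted p = 0.124). Nucleotide synthesis had 17 of 21 higher and 1 lower (median 0.63), or 9 and 4 with a common total. Rrm2, the ribonucleotide reductase subunit (ENSMUSG00000020649.11, chromosome 12, 24708241 to 24714146, plus strand), stood at 33.2, 33.5 and 33.3 FPKM against 0.787, 0.750 and 0.563 FPKM. Tk1, thymidine kinase, rose too (30.7 against 2.58 FPKM), while Ctps, CTP synthase, fell (8.75 against 21.3 FPKM). DNA repair and checkpoint genes had 20 of 25 higher and 2 lower (median 0.97). The latter count became 5 with a common total and 1 when the first or the third MIM-Astrocytes library, or the first or the second of Astrocytes, was left out. Exo1 and Fanci were among the higher genes (3.10 and 2.79). The E2F motif TTTCCCGC or TTTGGCGC was in 10 of 24 windows of the replication list (41.7%), in 3.3% of those of fitted genes and in 1.6% of all.

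Among regulators of G1, 15 of 24 higher and 5 lower (median 0.80). Ccnd1, cyclin D1, stood at 23.7 ± 0.860 against 6.72 ± 0.576 FPKM and Cdk4, its kinase, at 238, 294 and 276 FPKM against 84.5, 94.1 and 81.4 FPKM (log2 difference 1.62, SE 0.10, adjusted p = 1.22e-07). Ccne1, cyclin E1, rose from 0.457 ± 0.0370 to 4.70 ± 0.455 FPKM, and E2f8 from a mean of 0.00527 to 3.43 FPKM. The rise of Ccnd2 (0.49) was no longer called after rescaling to a common total. Of the inhibitors, Cdkn1a, which encodes p21, was higher (20.8 against 11.2 FPKM), whereas Cdkn2b and Cdkn2a, of the locus that arrests aged cells, were lower (-1.04 and -0.72). Rb1 was not called (-0.25, adjusted p = 0.059), and its relative Rbl1, itself a cell cycle gene, rose (2.22). Myc was not called (4.09 against 3.45 FPKM), and Mycn did not reach the limit. Genes of p53 and growth arrest had 11 of 23 higher and 9 lower (median 0.069). Txnip, an inhibitor of glucose uptake and thioredoxin, fell from 83.8 ± 5.60 to 6.77 ± 0.812 FPKM and also lay below its NSC level of 96.8 ± 9.36 FPKM. Gadd45a and Gadd45b fell by similar amounts (-2.70 and -2.69), while Plk2 and Sesn2 rose (2.18 and 1.20).

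Genes of growth factor signalling changed among ligands, receptors and feedback regulators. Of EGF and FGF ligands and receptors 4 of 13 were higher and 8 lower (median -0.25). Hbegf, an EGF receptor ligand, fell: it stood at 6.02, 6.05 and 5.83 FPKM against 61.5, 67.2 and 54.5 FPKM (log2 difference -3.15, SE 0.086, adjusted p = 2.68e-10). Nrg1 and Fgf1, further ligands, fell (-1.95 and -1.25), and Tgfa, another ligand of the EGF receptor, rose (1.76). Fgfr3, the FGF receptor of astrocytes and their precursors, rose (93.4 ± 7.80 against 50.3 ± 3.88 FPKM) and stood at 94.6 FPKM in NSC, a difference that was not called (adjusted p = 0.823), while Fgfr1 was not called (-0.19). Genes induced by ERK, the kinase downstream of both, had 13 of 17 higher and 3 lower (median 1.37). Dusp6, the ERK phosphatase, stood at 38.0, 42.7 and 39.7 FPKM against 8.82, 10.0 and 9.70 FPKM and at 38.1 FPKM in NSC, and Spry1 rose from 0.446 ± 0.106 to 5.75 ± 0.618 FPKM. Immediate early genes, by contrast, had 1 of 14 higher and 11 lower (median -1.26). Junb stood at 1.28, 1.81 and 1.52 FPKM against 17.5, 19.7 and 15.2 FPKM, and Maff fell (-2.41). Nr4a2 was the member that rose (1.03).

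Insulin-like growth factor binding proteins, which hold IGF in the medium, moved in both directions. Igfbp4 (ENSMUSG00000017493.12, chromosome 11, 99041244 to 99054392, plus strand) stood at 287, 328 and 337 FPKM in MIM-Astrocytes and 6.97, 7.52 and 6.70 FPKM in Astrocytes, 44.9-fold in means (log2 difference 5.30, SE 0.081, adjusted p = 5.68e-12). Igfbp2 stood at 926, 1040 and 938 FPKM against 179, 202 and 164 FPKM. Both were also above NSC, where they stood at 45.4 ± 3.81 and 188 ± 18.3 FPKM (adjusted p = 2.93e-09 and 3.24e-08). Igfbp5 went the other way, at 3.79, 3.32 and 3.78 FPKM against 88.1, 79.4 and 93.7 FPKM (log2 difference -4.25, SE 0.074, adjusted p = 1.16e-11), and Igfbp7 and Igfbp3 fell (-2.11 and -0.53). The IGF list as a whole had 2 of 11 higher and 5 lower (median -0.17), and 8 lower after rescaling to a common total. Insr, the insulin receptor, was not called (-0.079).

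BMP and TGF-beta genes fell for the most part, with 5 of 23 higher and 16 lower (median -1.23), or 2 higher after rescaling to a common total. Id1 and Id3, the inhibitors of bHLH factors that BMP induces, were among those that fell. Id3 (ENSMUSG00000007872.3, chromosome 4, 136143497 to 136145755, plus strand) stood at 10.8, 12.2 and 11.1 FPKM against 267, 295 and 231 FPKM, and Id1 at 4.98, 5.17 and 5.84 FPKM against 121, 140.2 and 104 FPKM. Both lay below NSC as well (36.7 ± 4.48 and 15.0 ± 1.43 FPKM, adjusted p = 4.8e-07 and 1.96e-06). The ligand gene Bmp6 fell from 25.5 ± 1.69 to 0.787 ± 0.0682 FPKM and Tgfb3 from 20.9 ± 2.55 to 0.870 ± 0.0108 FPKM. Nog, the secreted BMP antagonist, fell with them (0.918 ± 0.0517 against 29.1 ± 3.26 FPKM). The members that rose, Bmp7, Tgfbr1 and Ltbp1 among them, did so by less than 1 (0.48, 0.80 and 0.46), and the call for Ltbp1 ended after rescaling to a common total.

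Notch signalling passes between neighbouring cells and is known to hold progenitors undifferentiated. Its ligands, receptors and targets had 11 of 18 higher and 6 lower (median 0.78). Jag1, a ligand, stood at 4.20, 4.58 and 4.07 FPKM against 0.239, 0.105 and 0.216 FPKM (log2 difference 2.16, SE 0.06, adjusted p = 2.96e-10). Nrarp, a feedback inhibitor induced by Notch, rose from 0.120 ± 0.0123 to 10.4 ± 1.17 FPKM. The target Hes1 rose too (15.5 ± 2.69 against 7.28 ± 0.459 FPKM), but was below NSC (23.8 ± 1.46 FPKM). Hey1, another target gene, fell: it stood at 15.3, 16.8 and 15.4 FPKM against 68.5, 76.2 and 61.2 FPKM. Numb, an inhibitor, and Dner, an atypical ligand, also fell (-0.67 and -1.38). The rise of Notch1 (0.57) was not called after rescaling to a common total. TGGGAA, the core read by RBPJ, was in 3 of 16 windows of the list (18.8%) and in 22.8% of those of fitted genes. Wnt genes had 8 of 21 higher and 11 lower (median -0.27). Wnt7b, a ligand of the developing forebrain, rose (30.6, 36.8 and 35.9 FPKM against 0.580, 0.607 and 0.543 FPKM, log2 difference 4.49, SE 0.072, adjusted p = 7.74e-12), with Wnt4 (2.05) and the receptor gene Fzd9 (2.98), while Sfrp1, a secreted antagonist, Fzd5 and Wnt5b fell (-2.11, -1.88 and -1.73).

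Transcription factors of progenitors split. Of the 7 proneural and early neuronal genes tested 6 rose, among them Sox11 (1.73) and Stmn1, a tubulin regulator (2.50). Dcx, the marker of migrating young neurons, did not reach the limit. Genes of the oligodendrocyte progenitor had 13 of 15 higher and 2 lower (median 2.07). Olig1 stood at 331, 387 and 380.2 FPKM against 29.1, 30.9 and 26.7 FPKM (log2 difference 3.61, SE 0.088, adjusted p = 1.19e-10), and Sox8 rose from 7.33 ± 0.822 to 83.9 ± 3.91 FPKM, with 92.3 ± 7.39 FPKM in NSC, a difference that was not called (adjusted p = 0.175). C1ql1 fell (-3.14). Against NSC 8 of these 15 genes were lower in MIM-Astrocytes, 5 higher and 2, Sox8 among them, not called (median -0.51). The broader list of SOX, PAX, FOX, NFI and other factors had 24 of 48 higher and 14 lower than in Astrocytes (median 0.28). Foxm1, the activator of mitotic genes, rose (3.60), as did Sox1 (1.40). Sox9, which both stem cells and astrocytes express, fell (12.9, 10.4 and 11.7 FPKM against 20.1, 15.9 and 21.0 FPKM), and its difference from NSC was not called (-0.14, adjusted p = 0.28), and Foxo3 fell (-1.06).

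**Figure D3:**
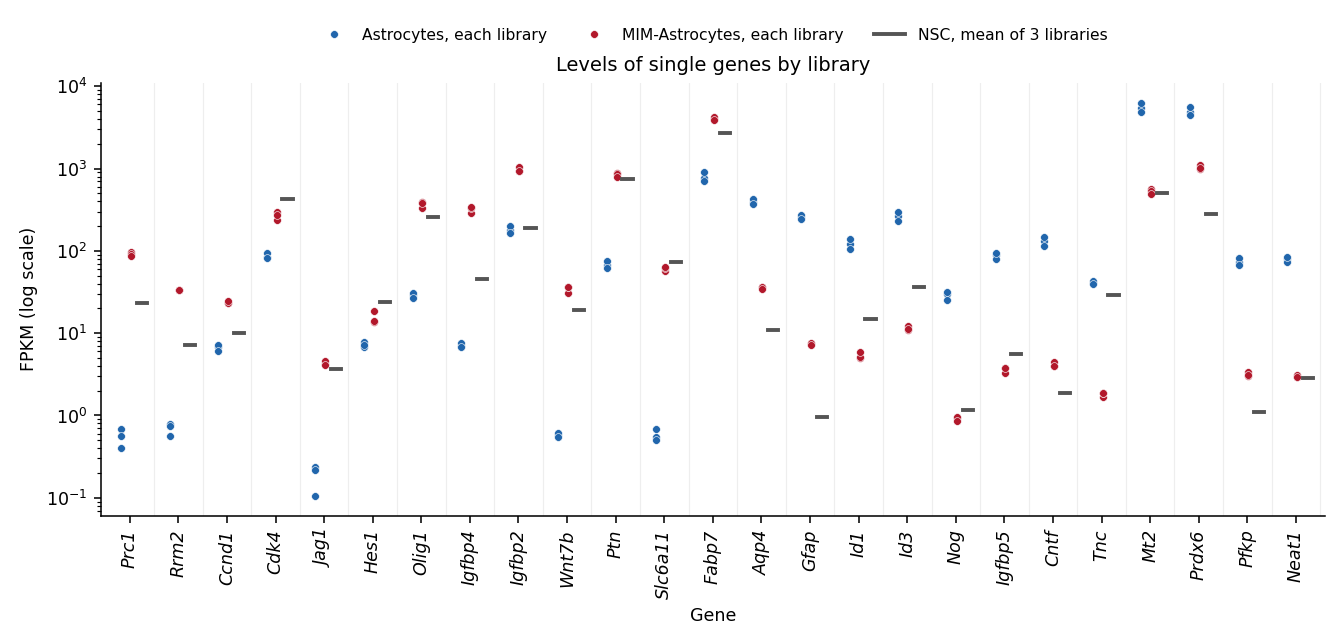
FPKM on a log scale of 25 genes, in each Astrocytes library (blue) and each MIM-Astrocytes library (red), with the mean of the 3 NSC libraries as a bar. Red and blue points do not overlap for any gene drawn, and NSC lies near the red points for Ptn, Mt2 and Neat1 but well away from them for Prc1, Igfbp4 and Tnc.

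Genes of mature astrocytes did not move one way. Of 35 tested 17 were higher and 12 lower (median 0.13), and their summed share of the protein-coding FPKM was 5.15 ± 0.181% against 4.87 ± 0.125% (two-sided exact permutation p = 0.2). Slc6a11, the GABA transporter GAT-3, stood at 56.6, 61.8 and 62.9 FPKM against 0.547, 0.510 and 0.691 FPKM (log2 difference 5.28, SE 0.066, adjusted p = 2.88e-12). Fabp7, the brain lipid binding protein of radial glia, was among the most abundant mRNAs and rose (4037, 4260 and 3876 FPKM against 775, 902 and 711 FPKM, log2 difference 2.35, SE 0.14, adjusted p = 8.28e-08). Slc39a12, a zinc transporter of astrocytes, fell (30.5 ± 1.14 against 243 ± 18.7 FPKM), as did Mt3 (-0.80). The abundant Aldoc and Cst3 were not called (0.13 and -0.076). The rise of Slc1a2 (0.44) was no longer called after rescaling to a common total, nor was that of Apoe (0.48), which also ended with only these 6 libraries in the fit. Against NSC 26 of the 35 were higher in MIM-Astrocytes and 5 lower. Of the filament genes Vim, vimentin, fell (936 ± 69.3 against 2326 ± 216 FPKM), and Lmnb1, the lamin of dividing cells, rose from 1.43 ± 0.220 to 39.5 ± 1.04 FPKM.

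Genes of ion transport and transmitter sensing moved in both directions. Atp1b1, a beta subunit of the sodium pump, fell (-1.71), and Atp1b3 was not called (-0.11). Receptors for transmitters had 14 of 26 higher and 7 lower (median 0.55). Grm5, the metabotropic glutamate receptor of young astrocytes, stood at 50.4, 52.7 and 52.3 FPKM against 1.42, 2.16 and 1.33 FPKM (log2 difference 4.34, SE 0.10, adjusted p = 8.91e-11), and Gria2 rose (1.67). Adora1, the adenosine A1 receptor, fell (22.0 against 76.6 FPKM), and Adora2b, the A2B receptor, rose (9.32 against 1.97 FPKM). Cell adhesion genes had 20 of 29 higher and 6 lower (median 0.95): Lrrn1 rose from 3.71 ± 0.315 to 71.8 ± 0.284 FPKM, and Nlgn3, neuroligin 3, rose too (1.85).

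Reactive, complement and acute phase genes fell, 22 of 24 (background 28.9%), with 1 higher (median -2.21). Lbp, which binds bacterial lipopolysaccharide (ENSMUSG00000016024.9, chromosome 2, 158306493 to 158332852, plus strand), stood at 1.04, 0.732 and 1.19 FPKM against 108, 129.8 and 111 FPKM (log2 difference -5.88, SE 0.093, adjusted p = 7.08e-12). A2m, the protease inhibitor alpha-2-macroglobulin, fell from 573 ± 27.5 to 49.3 ± 0.567 FPKM. Ptgds, prostaglandin D synthase, is the member that rose (66.5 against 20.5 FPKM). The share of the list in the protein-coding FPKM was 0.0900 ± 0.00135% against 0.667 ± 0.0271%. Of the cytokines and growth factors of glia 7 of 15 rose and 7 fell (median 0.11). Cntf, the ciliary neurotrophic factor of astrocytes, stood at 3.99, 4.44 and 3.94 FPKM against 132, 149 and 115 FPKM (log2 difference -4.69, SE 0.10, adjusted p = 5.5e-11), and Csf1, the factor that keeps microglia alive, fell (-2.72). Ptn, pleiotrophin, rose (888, 868 and 798 FPKM against 67.0, 75.1 and 61.1 FPKM) and stood at 752 FPKM in NSC (adjusted p against NSC = 0.15), Mdk, its relative midkine, rose (2.46), and so did Vegfa (1.90).

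Interferon response and MHC class I genes fell in 36 of 39 and rose in 0 (median -1.33). As in every list below with none called on one side, limma gave 0 on that side at an unadjusted p below 0.05 as well. Gbp2, a GTPase of antimicrobial defence, stood at 0.708, 0.665 and 0.666 FPKM against 8.56, 10.3 and 8.06 FPKM (log2 difference -2.56, SE 0.077, adjusted p = 5.18e-10), and Ifit1, which binds foreign RNA, at 0.287, 0.234 and 0.249 FPKM against 6.33, 7.25 and 5.78 FPKM. Tap1, the peptide transporter, was not called (-0.15). Against NSC 35 of the 39 were higher in MIM-Astrocytes and none lower. Gbp2 stood at 0.141 ± 0.0261 FPKM in NSC. The core of the interferon-stimulated response element, GAAANNGAA, was in 17 of 31 windows (54.8%), in 6.9% of those of fitted genes and in 8.6% of all. The windows of the 2 members with the largest difference that hold it, chr19:34640639-34640938 and chr3:142620413-142620712 (both plus strand), are shown with the matches in capitals.
Ifit1: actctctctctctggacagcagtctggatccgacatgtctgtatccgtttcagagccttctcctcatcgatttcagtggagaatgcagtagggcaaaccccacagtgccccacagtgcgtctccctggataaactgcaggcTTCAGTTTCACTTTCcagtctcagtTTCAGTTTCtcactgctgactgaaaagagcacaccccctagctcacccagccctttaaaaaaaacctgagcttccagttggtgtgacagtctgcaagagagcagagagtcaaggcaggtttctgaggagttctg
Gbp2: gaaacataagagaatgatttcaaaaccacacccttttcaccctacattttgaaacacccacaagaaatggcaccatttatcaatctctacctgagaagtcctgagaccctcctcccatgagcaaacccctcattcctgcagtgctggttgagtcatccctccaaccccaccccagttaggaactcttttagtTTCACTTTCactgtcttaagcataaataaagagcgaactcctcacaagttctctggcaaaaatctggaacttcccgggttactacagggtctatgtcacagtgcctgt
The matches are all to the reverse complement. Ifit1 has 3, of which 2 overlap, and Gbp2 has 1 that begins 58 bases before the start. TTCNNNGAA, read by STAT factors and searched separately, was in 3 of 17 windows of the reactive list (17.6%) and in 6.8% of those of fitted genes.

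Collagen, contractile, integrin and laminin genes were lower for the most part, unlike the cell adhesion list above. Of collagen chains and their processing enzymes 22 of 26 fell and 1 rose (median -1.33), of YAP targets and contractile genes 20 of 25 fell and 1 rose (median -1.13), and of integrins and laminins 15 of 21 fell and 4 rose (median -0.46). The YAP list member that rose, Myh9, non-muscle myosin, had a difference of 0.31 that was -0.025 after rescaling to a common total. Wisp2, a matricellular protein also called CCN5, stood at 0.0910, 0.0614 and 0.0823 FPKM against 40.3, 45.4 and 37.6 FPKM (log2 difference -5.28, SE 0.069, adjusted p = 3.25e-12). Tnc, tenascin C, a matrix protein of stem cell niches and of scars, stood at 1.67, 1.90 and 1.87 FPKM against 40.9, 43.1 and 40.0 FPKM and was also below its level in NSC (28.9 ± 1.27 FPKM, log2 difference -3.41, SE 0.052, adjusted p = 7.64e-11). Sparc fell from 1277 ± 122 to 189 ± 15.1 FPKM, and Col4a6, a basement membrane chain, and Itga7, an integrin that binds laminin, fell (-2.29 and -3.14). The meningeal marker sum given above moved with these genes, and its part was not tested. Col1a1 was low in both groups (0.0938 and 2.69 FPKM). GGAATG, read by TEAD factors, was in 12 of 21 windows of the YAP list (57.1%), in 11.6% of those of fitted genes and in 14.6% of all, and the AP-1 motif TGANTCA in 2 of 21 (9.5%), against 4.4% and 7.9%.

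A smaller set of matrix genes rose. Fbln2, fibulin 2, stood at 17.1, 13.7 and 14.1 FPKM against 0.246, 0.217 and 0.217 FPKM (log2 difference 3.70, SE 0.10, adjusted p = 2.01e-10), below NSC (75.1 ± 6.38 FPKM), and Smoc1 and Col27a1 rose (3.37 and 1.34). The lecticans of the brain matrix split: Bcan, brevican, and Vcan, versican, rose (1.31 and 2.58) and Ncan, neurocan, fell (-1.22). Sdc3, a syndecan, rose from 2.46 ± 0.415 to 47.5 ± 6.10 FPKM. Itgav, the alpha chain of receptors that activate latent TGF-beta, rose (1.27) with its partner Itgb8 (0.92). Of proteases and inhibitors, Serpine2, protease nexin 1, was abundant and rose (841, 899 and 902 FPKM against 175, 182 and 164 FPKM), while Adamts1 and Timp2 fell (-3.15 and -2.46). Ahnak, a very large scaffold protein, fell from 71.9 ± 1.32 to 0.985 ± 0.00309 FPKM.

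The enzymes that use the metabolites of MIM did not move together. Of folate and serine enzymes 14 of 27 rose and 7 fell (median 0.38), of the methionine cycle, transsulfuration and glutathione 12 and 12 of 29 (median 0.014), and of threonine, glycine, proline, arginine and polyamine enzymes 8 and 15 of 26 (median -0.49). Of serine synthesis, Psat1 stood at 164, 181 and 169 FPKM against 88.0, 95.7 and 79.7 FPKM (log2 difference 0.96, SE 0.11, adjusted p = 2.04e-05), and Phgdh rose (0.38) (adjusted p = 0.0202), but its call was lost when MIM-Astrocytes replicate 2 (adjusted p = 0.067) or Astrocytes replicate 3 (0.0697) was left out, with the 6 libraries alone (0.0613) and after rescaling to a common total (0.732). Shmt2, which turns serine into glycine in mitochondria, rose from 12.4 ± 1.04 to 40.6 ± 3.96 FPKM, and Mthfd1l, downstream of it, rose as well (1.56). The glycine decarboxylase gene Gldc, of one of the routes that use glycine, fell (27.3 ± 2.02 against 44.5 ± 3.34 FPKM). Folr1, a folate receptor, went from 14.3, 14.9 and 12.1 FPKM in Astrocytes to 0.0649, 0.181 and 0.0549 FPKM in MIM-Astrocytes (log2 difference -3.74, SE 0.087, adjusted p = 8.99e-11).

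Amino acid handling around the urea and creatine pathways showed the largest differences among these enzymes. Gatm, which uses glycine and arginine for creatine (ENSMUSG00000027199.14, chromosome 2, 122594467 to 122611303, minus strand), stood at 26.0, 27.5 and 26.7 FPKM in MIM-Astrocytes and 0.172, 0.189 and 0.338 FPKM in Astrocytes (log2 difference 4.49, SE 0.065, adjusted p = 4.45e-12). Ass1, argininosuccinate synthase, stood at 0.291, 0.382 and 0.425 FPKM against 32.9, 35.3 and 30.7 FPKM (log2 difference -4.63, SE 0.07, adjusted p = 5.3e-12), and Asl, the next enzyme toward arginine, fell (-1.49). Genes of proline synthesis rose and a gene of proline oxidation fell. Aldh18a1 and Pycr1, enzymes of the synthesis, stood at 36.3 ± 1.83 and 7.30 ± 0.777 FPKM against 4.54 ± 0.549 and 0.460 ± 0.0639 FPKM, and Prodh at 2.89 ± 0.153 against 22.0 ± 2.76 FPKM. Sat1, the enzyme that acetylates polyamines for export, fell (28.2, 32.6 and 28.6 FPKM against 64.0, 68.6 and 57.1 FPKM). In the methionine and glutathione list, Ahcyl1, an enzyme-like relative of the S-adenosylhomocysteine hydrolase, rose from 41.7 ± 1.65 to 153 ± 15.0 FPKM while its paralogue Ahcyl2 fell from 165 ± 7.84 to 85.3 ± 6.13 FPKM. Gss, glutathione synthetase, fell (-0.99), and Gsr, which recycles glutathione, rose (1.56). Of amino acid transporters, Slc6a9, the glycine transporter GlyT1, rose (66.5, 78.9 and 84.4 FPKM against 10.6, 9.76 and 11.9 FPKM), and Slc43a2 and the taurine transporter gene Slc6a6 fell (-1.97 and -1.82).

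**Figure D4:**
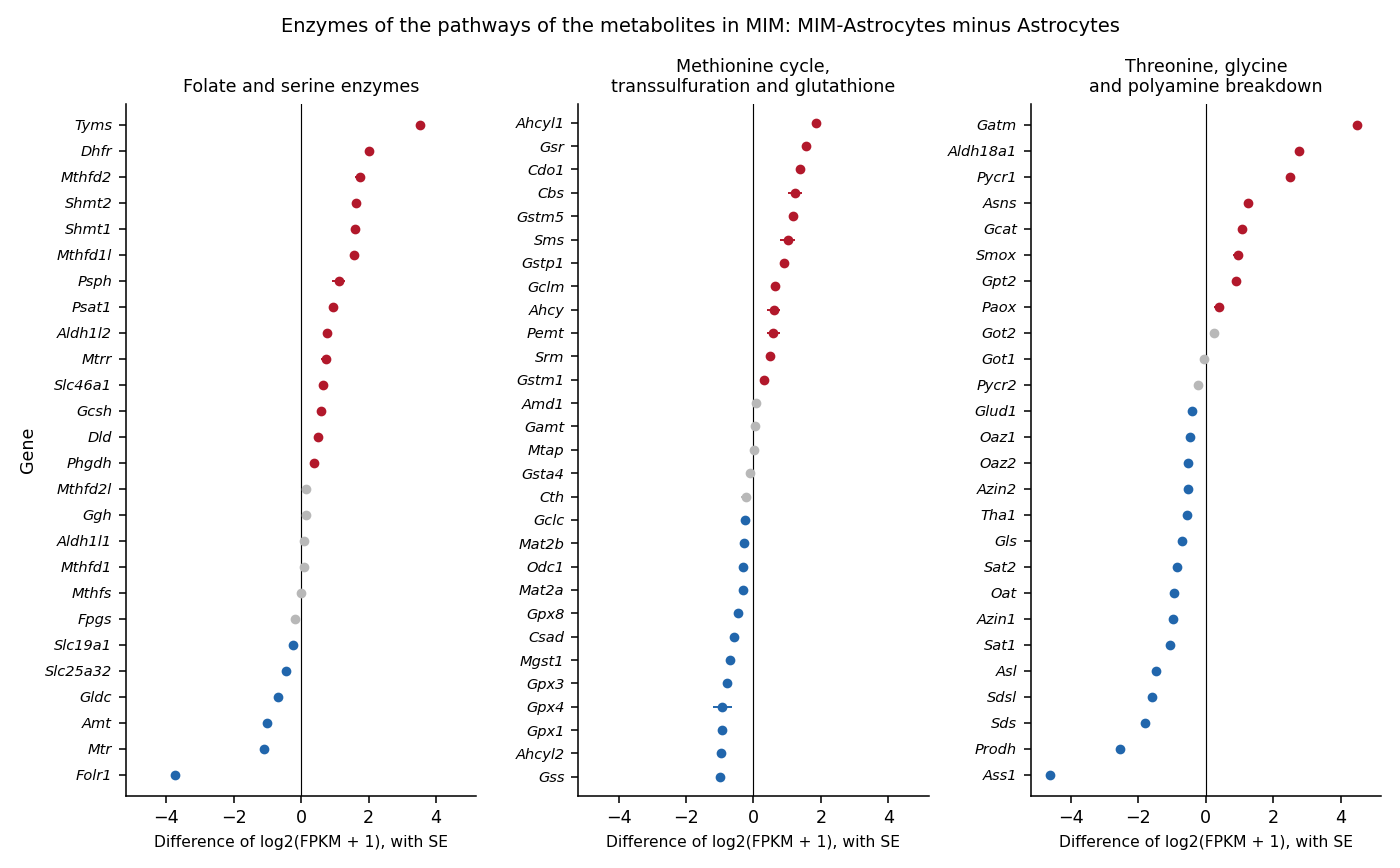
Difference of log2(FPKM + 1), MIM-Astrocytes minus Astrocytes, with its standard error, for tested enzymes and carriers of 3 pathway lists (red called higher, blue called lower, grey not called). Each list holds genes on both sides of 0, and Gatm (4.49) and Ass1 (-4.63) lie at the ends of the third.

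Translation genes rose. Of cytosolic ribosomal protein genes 50 of 54 were higher and none lower (median 0.96), 44 after rescaling to a common total, and their share of the protein-coding FPKM was 4.53 ± 0.117% against 2.38 ± 0.129%. Rpsa stood at 555, 732 and 593 FPKM against 169, 192 and 154 FPKM. Their many pseudogenes can share reads with them. Against NSC 46 of the 54 were lower in MIM-Astrocytes and 1 higher. Aminoacyl-tRNA synthetases had 25 of 37 higher and 3 lower (median 0.38), with Cars rising (1.49) and the mitochondrial Rars2 falling (-0.92), but 16 and 10 after rescaling to a common total. With median-of-ratios scaling or quantile normalization 8 were lower, and 5 without Astrocytes replicate 3. DNA and histone methylation enzymes had 30 of 41 higher and 3 lower (median 0.41), and 12 and 8 after that rescaling. Suv39h2, a histone methyltransferase, rose (1.43) and the demethylase gene Kdm7a fell (-0.67).

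With the values as deposited, energy genes differed in direction by pathway against Astrocytes, but not against NSC. Of glycolytic, lactate and hypoxia genes 15 of 29 fell and 8 rose (median -0.24), 4 after rescaling to a common total. Against NSC 24 of the 29 were higher in MIM-Astrocytes and 2 lower (median 0.99). Pfkp, the platelet form of phosphofructokinase (ENSMUSG00000021196.14, chromosome 13, 6579768 to 6648777, minus strand), stood at 3.02, 3.38 and 3.12 FPKM against 73.7, 82.3 and 66.8 FPKM (log2 difference -4.17, SE 0.09, adjusted p = 4.96e-11), and Slc16a1, the lactate carrier MCT1, at 26.1, 28.2 and 26.5 FPKM against 229, 255 and 211 FPKM (log2 difference -3.06, SE 0.078, adjusted p = 1.71e-10). Gpi1, the isomerase one step above phosphofructokinase, rose (443 ± 12.9 against 226 ± 10.2 FPKM). Nuclear-encoded respiratory chain genes had 20 of 40 higher and 1 lower (median 0.32), but 8 and 7 after rescaling to a common total, and the count of higher genes was 13 without MIM-Astrocytes replicate 2 or Astrocytes replicate 3. The count of lower genes was 9 with quantile normalization and 2 without Astrocytes replicate 3. Against NSC all 40 were higher in MIM-Astrocytes. Lipid synthesis had 18 of 32 higher and 9 lower (median 0.34), with 8 higher after that rescaling. Elovl6 and Me1 rose (1.37 and 1.33) and Scd1, a fatty acid desaturase, fell (-1.57). Against NSC 29 of the 32 were higher. Acsl6 and Lcat, of fatty acid activation and lipoprotein maturation, fell (-2.49 and -2.63).

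Metal, antioxidant and chaperone genes held some of the largest changes in absolute level. Mt1 and Mt2, the metallothioneins that buffer zinc, were among the most abundant mRNAs of Astrocytes. Mt2 stood at 571, 529 and 491 FPKM against 5480, 6335 and 4876 FPKM (log2 difference -3.38, SE 0.13, adjusted p = 2.47e-09) and Mt1 at 924 ± 51.3 against 6190 ± 811 FPKM, and neither difference from NSC was called (adjusted p = 0.715 and 0.782). Prdx6, a peroxiredoxin, fell from 4899, 5663 and 4534 FPKM to 987, 1093 and 1013 FPKM. Tfrc, the transferrin receptor, and Ftl1, ferritin light chain, rose (1.11 and 1.45). The small heat shock genes Hspb1 and Cryab fell (-3.76 and -3.29), while the mitochondrial chaperones Hspd1 and Hspe1, which share a promoter, rose (1.15 and 0.84), and the abundant Hspa8 was not called (0.10). Genes of the ATF4 and unfolded protein responses had 10 of 27 higher and 9 lower (median -0.073), but 15 lower with quantile normalization and 14 after rescaling to a common total. The motif TGATGNAA, read by ATF4 and CEBP factors, was in 2 of 25 of their windows (8.0%), against 1.9% of those of fitted genes. For lipid synthesis the SREBP motif TCACNCCAC was in 1 of 22 (4.5%), against 1.0%.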

How the data were processed

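Total RNA of cultured mouse cells was sequenced in 12 libraries, 3 in each of 4 groups. Per the submitters' processing notes and the file headers, the authors computed the deposited FPKM values with Cufflinks on GRCm38. Its version is not given. Each library has a table with a value, its interval and a status for every gene. The aligner, the strandedness and any filter are not given in the sources used here, so overlapping genes on opposite strands were not separated. The tables held 53989 lines for 53932 genes. Lines of the 45 genes on more than 1 line were summed. GENCODE M21, which held 99.9% of the identifiers, gave biotype and strand, and coordinates are those of GRCm38.

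Genes at 1 FPKM or more in 3 of the 6 libraries were taken as log2 of FPKM plus 1. They were fitted with limma 3.58.1 in R 4.3.3 over all 12 libraries (4 group means, 8 residual degrees of freedom, trended variance prior, two-sided), with Benjamini and Hochberg adjustment over 15276 genes. A gene was called at an adjusted p below 0.05. In the text, rose and fell compare MIM-Astrocytes with Astrocytes. A pseudocount of 1 pulls differences of weakly expressed genes toward 0. The script was tested on simulated data, where it did not reach the bar first set for recovery of changed genes. Its misses were mostly genes of large spread. After that run the bar was changed to recovery without the noisiest genes, together with false calls and bias. Tables were handled with Python 3.11.15 and pandas 2.3.3 and figures drawn with matplotlib 3.10.9.

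The comparison, its 55 lists (1576 genes, 1217 fitted, 343 under the limit, 2 without the status OK and 14 not analysed here) and the tests were chosen with earlier results of these data known. Lists are described by counts and medians, without a set test, and the shares of all genes are given for each comparison. Named genes are the 10 largest log2 differences and the 8 largest differences in mean FPKM each way, up to 3 members per list and direction with the smallest p, the most abundant member not called, the most abundant of the genes near 0 in one group, and 48 genes fixed by name. Otx2, Zfp628, Chst9 and Pde1c stand for the limit, and further genes named with the marker sums for the marker lists. Alternatives were other pseudocounts, filters and scalings, fewer libraries, a replicate block and leaving out each library. Some named genes are not reported here.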

Additional observations from a re-analysis of the deposited data

How the results depend on the processing

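Of 295 named genes tested in all 16 alternatives, 243 kept their call and direction in each. Of 72 more that a mean of at least 5 FPKM leaves out, 66 did so in the other 15. The scaling mattered most. With a common total of all genes 2954 genes were higher and 6636 lower, 2178 of the latter by at least 2-fold, and Myh9 turned from 0.31 to -0.025 (adjusted p = 0.875). Median-of-ratios scaling gave 49.0% of calls higher. With a mean of at least 5 FPKM, which tests fewer genes, 2725 were lower, 841 of them by at least 2-fold. Leaving out 1 library gave 5011 to 5634 higher and 4105 to 4451 lower genes (1456 to 1594 and 1388 to 1470 by at least 2-fold). Xist ended its call in 9 alternatives and mt-Co1 in 14. The labels do not say that replicate numbers pair samples: deviations of same-numbered libraries correlated at -0.027, 0.022 and 0.054, other pairs at -0.119 to 0.078, and not every library correlated best with its own number. With a replicate block in the 6 libraries 5153 genes were higher and 4156 lower, against 5114 and 4095 in those libraries without it. Depth is unknown, and 3 libraries a group limit the precision of weakly expressed genes, whose intervals near 1 FPKM reached 27.6% to 32.7% of the value.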

Other observations

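Genes of motile cilia, which ependymal cells carry, were lower in 12 of 14 tested, with none higher (median -1.29). Tppp3, a tubulin-binding protein of ciliated cells, stood at 0.801, 0.934 and 1.14 FPKM in MIM-Astrocytes and 43.5, 50.6 and 37.7 FPKM in Astrocytes (log2 difference -4.52, SE 0.13, adjusted p = 2.93e-10), and Dnah9, a dynein heavy chain of cilia, at 0.263 ± 0.0967 against 4.38 ± 0.0781 FPKM. Rfx3, a regulator of ciliary genes, was not called (-0.10). Summed ependymal markers, mostly Foxj1, moved the same way, 13.2 against 43.9 FPKM on average. The part of such cells in this difference was not tested. Lysosome and autophagy genes had 4 of 30 higher and 18 lower (median -0.38), with 1 higher after rescaling to a common total. Ctsb, the protease cathepsin B, stood at 157, 181 and 169 FPKM against 864, 931 and 801 FPKM, and Lgmn, legumain, fell (-1.49), while Npc2 was not called (-0.19). Guidance genes had 14 of 31 higher and 11 lower (median -0.084), with Ephb3 and Ntn1, netrin 1, higher (2.55 and 2.20) and Sema3c lower (-2.58).

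Single noncoding and imprinted RNAs differed. Neat1, the scaffold of nuclear paraspeckles, stood at 2.90, 3.06 and 2.94 FPKM in MIM-Astrocytes and 78.6, 72.8 and 84.0 FPKM in Astrocytes (log2 difference -4.32, SE 0.06, adjusted p = 3.7e-12), and at 2.83 ± 0.163 FPKM in NSC. Mir22hg, the host of a microRNA, fell (-2.74), and Pantr1, a lncRNA of neural progenitors, rose (1.48). Of 44 lncRNAs from bidirectional promoters 29 were lower (65.9%) and 3 higher, where 28.9% of all genes were lower. Of 244 snoRNAs 27.5% were higher and 2.46% lower, and of 1359 processed pseudogenes 36.0% and 9.57%, against 36.3% and 28.9% of all genes. Their median differences were 0.80 and 0.29, against 0.081 for all genes. Imprinted genes had 4 of 22 higher and 8 lower (median -0.10), with shares of 18.2% and 36.4% against 36.3% and 28.9% of all genes, but 16 lower after rescaling to a common total. Mest, an imprinted gene of embryonic tissue, stood at 54.3, 59.8 and 56.3 FPKM against 3.04, 2.10 and 2.77 FPKM (adjusted p = 1.01e-10), and at 110.2 ± 3.85 FPKM in NSC. The maternally expressed lncRNA Meg3 fell (0.309 against 2.68 FPKM).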
